A study of Mus musculus with 4 samples.

Results

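The genes described here form a set of 40 named for the NRF2 antioxidant response and for the chemistry of glutathione, thioredoxin and NADPH. They were chosen by name from textbook pathway membership, with earlier results of these data known. Each had to reach a value of at least 10 in 2 or more of the 4 libraries. All 40 were found in the deposited table of 23420 genes and all 40 passed that filter, so they are 40 of the 12463 genes tested. By role they comprise 3 regulators, 3 heme and quinone enzymes, 5 genes of glutathione synthesis and recycling and 5 of the thioredoxin system. There are also 7 peroxiredoxin and sulfiredoxin genes, 3 glutathione peroxidases and 6 glutathione transferases. The rest are 3 superoxide dismutase and catalase genes and 5 genes grouped under NADPH supply.

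The libraries are poly-A RNA-seq of myeloid cells sorted as CD11b+CD200R1+ from orthotopic cutaneous squamous cell carcinomas (cSCC) of FVB/N mice. The WT group (2 libraries) came from wild-type tumours that carry CD200, and the EpiKO group (2 libraries) from tumours of the genotype K14Cre;CD200fl/fl, in which CD200 is lost. The keratin 14 promoter drives Cre in basal epidermal keratinocytes, so the deletion is directed to the epithelium. Whether the sorted cells keep an intact Cd200 gene was not tested. Both groups share the strain and the sort gate. The comparison asks which genes of the receptor-bearing cells depend on CD200, the ligand of CD200R1. The sources used here do not say whether replicates came from separate mice or pools, nor the animals' age or sex. A p-value therefore sets a group difference against the spread between these libraries and not against a known spread between mice. In limma that spread is estimated with help from all genes tested.

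NRF2, encoded by Nfe2l2, is a transcription factor held at low levels by KEAP1, which hands it to a ubiquitin ligase. When electrophiles or oxidants modify KEAP1, NRF2 accumulates, pairs with a small MAF protein and binds antioxidant response elements near genes for glutathione synthesis, thioredoxin recycling, NADPH supply and heme breakdown. In macrophages this program is known for protection against the oxidants the cells themselves release and for limiting inflammatory gene expression.

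Values below are the authors' normalized read counts, in which 1 read is worth 0.841 to 1.16 units, and the depth was 15884132 to 21244158 reads assigned to genes. All 8 myeloid markers listed, Cd200r1 among them, stood at 10 or more in every library, but their levels were not all alike. Cd200r1, which encodes the sort marker, measured 318 and 293 in the WT pair and 1101 and 612 in the EpiKO pair. Its log2 difference was 1.43 (limma adjusted p = 0.115, DESeq2 adjusted p = 0.000244). Among the 3 markers of highest mean, Lyz2 and Itgam had both EpiKO libraries above both WT libraries, and Csf1r overlapped. Cd200 itself measured 92.7 and 59.7 in the WT pair and 17.2 and 15.1 in the EpiKO pair, and Ctsk, the cathepsin in the study's title, measured 10677 and 7022 in the WT pair and 434 and 299 in the EpiKO pair. WT replicate 1 stood apart by its keratinocyte RNA: the summed value of the 12 markers was 6104 there, 133 in WT replicate 2, 96.9 in EpiKO replicate 1 and 69.0 in EpiKO replicate 2, and Krt14 alone was at 1907 against 28.6, 8.61 and 18.9. The number of those 12 markers at 0 was 0 in WT replicate 1, 2 in WT replicate 2 and 3 and 4 in EpiKO. The 9 fibroblast markers summed to 43636 and 30063 in WT and to 21340.2 and 38084 in EpiKO, and none was at 0 in any library. The 8 neutrophil markers in the table summed to 1540.4 and 2952 in WT and to 4531 and 2426 in EpiKO, with at most 1 (Camp) at 0. Mmp8 carried that sum in EpiKO replicate 1, at 3757 there against 167 and 222 in WT and 847 in EpiKO replicate 2, whereas 6 of the 8 markers were highest in WT replicate 2. Xist measured 522 and 361 in the WT pair and 1228 and 1510.2 in the EpiKO pair, while the Y-linked Ddx3y was at 2310.0 and 1938 in WT and 1843 and 1742 in EpiKO. The part these other sources play in the members' values was not tested, and in bulk samples fewer cells of a type and less RNA per cell cannot be told apart.

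No member of the set differed between EpiKO and WT at an adjusted p below 0.05 in limma, where 118 of the 12463 genes tested, 0.947%, did. The smallest adjusted p of a member was 0.111, for Sod1. Without adjustment, 8 of 40 members, 20%, had a limma p below 0.05, against 15.6% of all genes tested, and 4 of the 8 were higher in EpiKO (Hmox1, Prdx5, Mgst1, Pgd) and 4 lower (Sqstm1, Txn1, Gpx1, Sod1). The edgeR quasi-likelihood test on the reads recovered from the values also called 0 members at an adjusted p below 0.05, with 8 below 0.05 unadjusted. DESeq2 on the same reads called 5 of 40, 12.5%, against 6.85% of all genes: Hmox1, Mgst1 and Prdx5 higher and Sqstm1 and Sod1 lower. The set therefore holds genes that lean in both directions: 23 log2 differences were positive and 17 negative, with a median of 0.06 against -0.0021 for all genes tested.

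**Figure D1:**
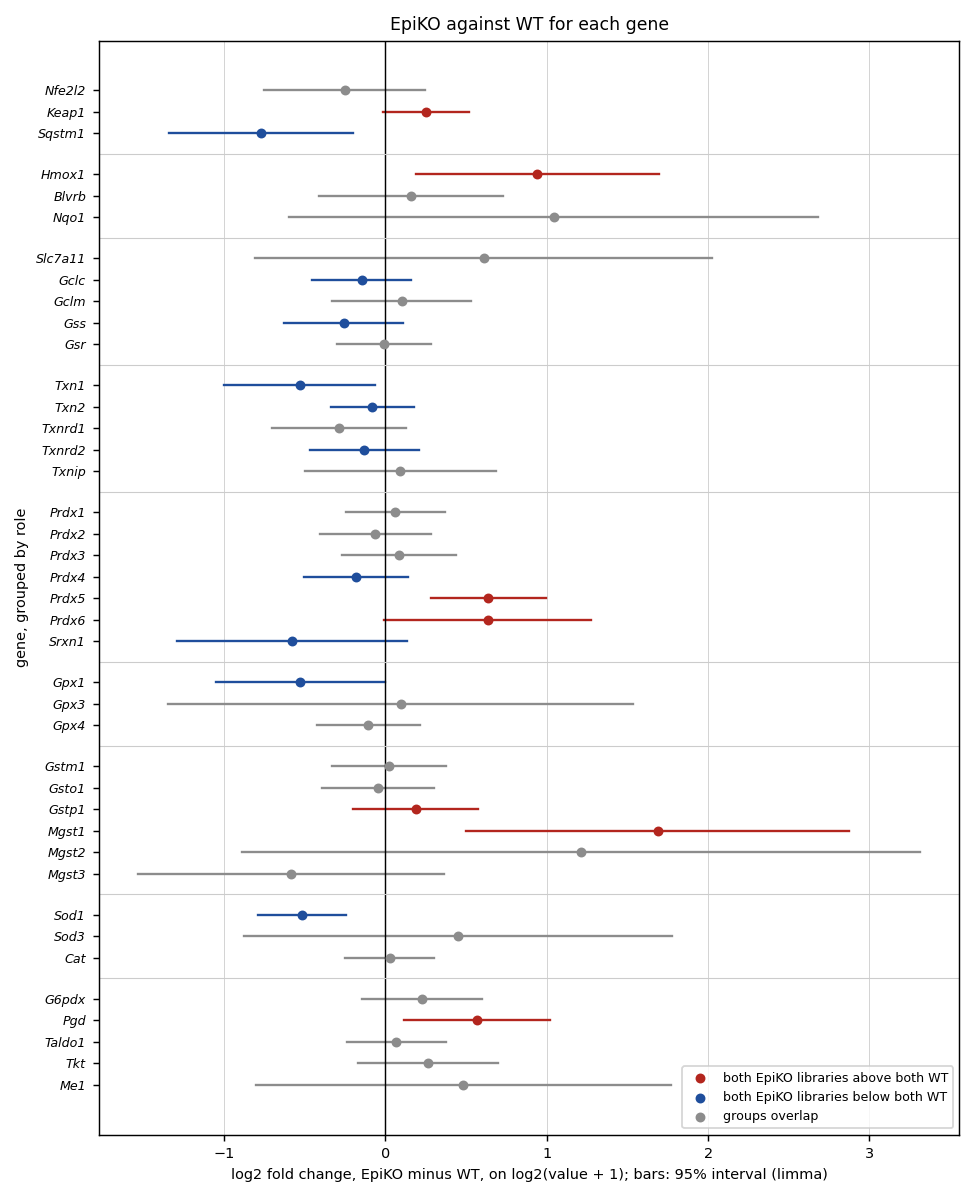
Log2 difference (EpiKO minus WT) of each of the 40 members, ordered by role, with its 95% confidence interval from limma. The differences run from -0.77 for Sqstm1 to 1.69 for Mgst1, and 32 of the 40 intervals span 0.

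The differences were mostly small. In 26 members, 65.0%, the log2 difference was below 0.5 in size, against 79.1% of all genes tested. The median size was 0.25, against 0.18 for all genes tested. In 3 members (Mgst1, Mgst2 and Nqo1), 7.5%, the size exceeded 1 in limma, against 8.99% of all genes tested. The 95% interval lay within a log2 difference of 1 in either direction for 26 members and within 0.5 for 12, so for the other members larger differences are not excluded at this replication. The median standard error was 0.17 on the log2 scale.

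Both EpiKO libraries stood above both WT libraries for 7 members, 17.5%, against 23.3% of all genes tested: Keap1, Hmox1, Prdx5, Prdx6, Gstp1, Mgst1 and Pgd. For 10 members, 25%, both stood below, against 23.8% of all genes: Sqstm1, Gclc, Gss, Txn1, Txn2, Txnrd2, Prdx4, Srxn1, Gpx1 and Sod1. Both shares are near the background or under it. With any 1 library left out the groups separate more easily, and the 17 members without overlap became 27 to 30. The count was 29 without WT replicate 1, 27 without WT replicate 2, 28 without EpiKO replicate 1 and 30 without EpiKO replicate 2. The share of all genes was not counted with a library left out, so these counts are not a result about the members. With 2 libraries a side, 0.333 is the smallest two-sided p that an exact permutation test allows.

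**Figure D2:**
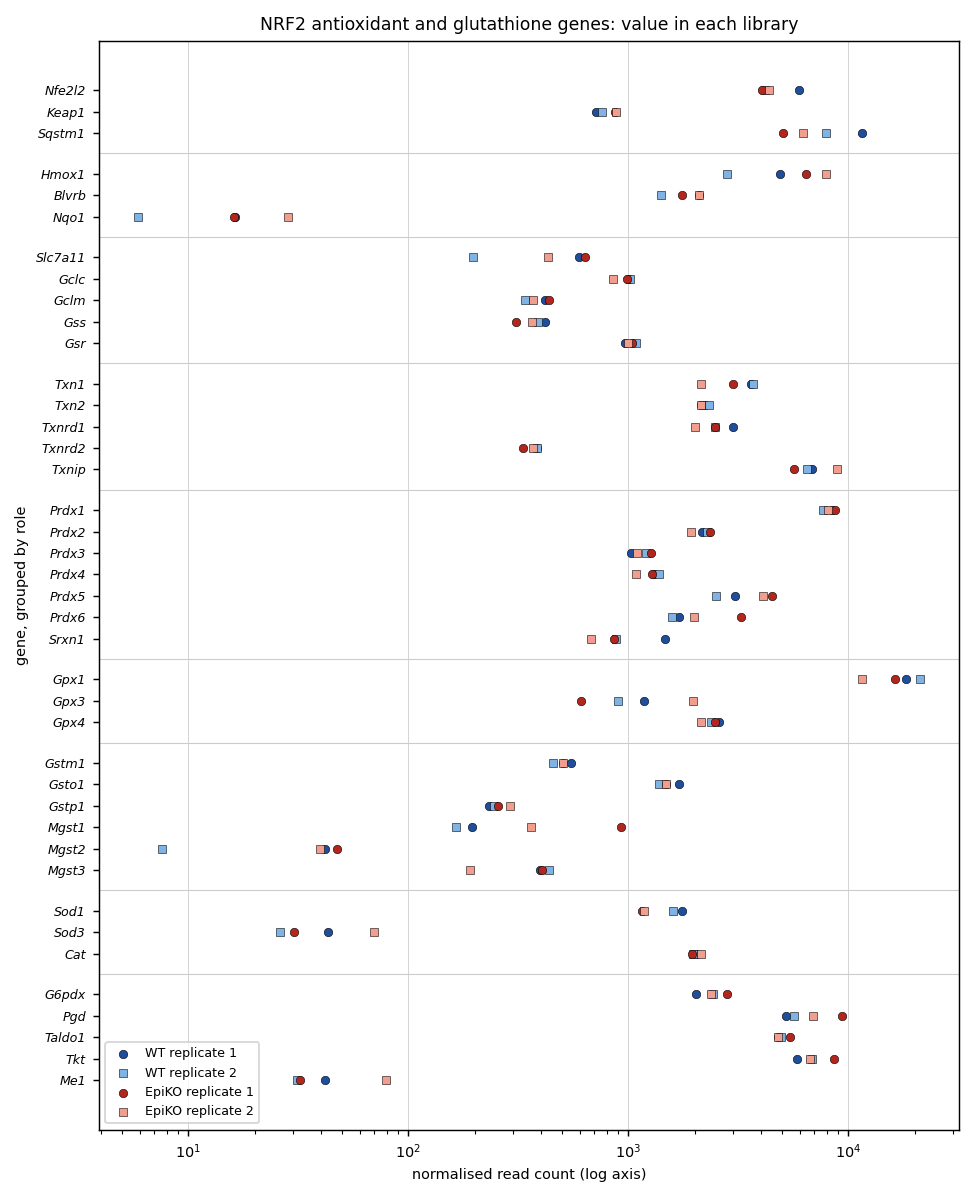
Normalized read count (log axis) of each member in the 4 libraries, by role, with WT and EpiKO replicates as separate points. The set spans Nqo1 at 5.88 in WT replicate 2 to Gpx1 at 21217 in the same library, and the groups overlap for 23 of the 40 members.

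Among the regulators, Sqstm1 showed the lowest EpiKO value relative to WT. Nfe2l2 measured 5992 and 4175 in the WT pair and 4060 and 4346 in the EpiKO pair. WT replicate 1 was the high library and the groups overlapped. For Nfe2l2 the log2 difference was -0.25 (SE 0.20, limma adjusted p = 0.629), and without WT replicate 1 it was 0.0088. Keap1, the NRF2 adaptor for ubiquitination, measured 714 and 757 in the WT pair and 873 and 877 in the EpiKO pair. Both EpiKO libraries were above both WT libraries by a log2 difference of 0.25 (SE 0.11, limma adjusted p = 0.345). Sqstm1 encodes p62, an autophagy receptor that binds KEAP1 and is itself an NRF2 target (chromosome 11, 50199366 to 50210827 in mm10, minus strand). Its values were 11517 and 7934 in WT and 5040 and 6217 in EpiKO. The groups did not overlap, and the log2 difference was -0.77 (SE 0.22, 95% interval -1.34 to -0.20, limma adjusted p = 0.198). DESeq2 gave an adjusted p of 0.0204, and over the other settings tried the adjusted p ran from 0.175 to 0.511. Without WT replicate 1, the library rich in keratinocyte RNA, the difference was -0.50.

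To place the NRF2 recognition letters, the core TGACNNNGC was searched on both strands of RefSeq promoters (GRCm38.p6, 250 bases before to 50 after each start). A promoter was held for 35 of the 40 members, with none for Gclc, Gsr, Hmox1, Prdx6 and Sod3. The core was found for 10 of those 35 genes, 28.6%, against 14% of the 27025 genes in the promoter table. Per promoter, it stood in 10 of 45 member promoters, 22.2%, and in 12.4% of all 32851. The 10 genes are G6pdx, Gclm, Me1, Mgst1, Nfe2l2, Pgd, Prdx1, Sod1, Srxn1 and Txnrd1. On the strand of the gene alone it was found in 3 (Me1, Nfe2l2, Pgd), 8.57% against 7.29% of all genes, so little of the excess is seen on that strand. Followed by an A it was found in 2 (Pgd, Txnrd1), 5.71% against 3.45% of all genes. The windows below belong to Nfe2l2, to Mgst1 and Sod1, which had the greatest log2 difference of their role groups in size, and to Srxn1, Prdx1 and Txnrd1, chosen after their values were seen as well-known NRF2 targets. Each is printed 5′ to 3′ along the gene, with the core in capitals. It is the reverse complement of the core except for Nfe2l2.
Nfe2l2, chr2:75704885-75704913, minus strand: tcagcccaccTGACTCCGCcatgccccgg
Mgst1, chr6:138140461-138140489, plus strand: gcggggcttgGCACGGTCAggaggcgggg
Sod1, chr16:90220680-90220739, plus strand: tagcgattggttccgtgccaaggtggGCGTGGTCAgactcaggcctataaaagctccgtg
Srxn1, chr2:152105542-152105570, plus strand: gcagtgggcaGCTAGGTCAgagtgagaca
Prdx1, chr4:116685440-116685499, plus strand: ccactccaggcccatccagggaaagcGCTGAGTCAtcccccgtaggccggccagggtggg
Txnrd1, chr10:82859088-82859147, plus strand: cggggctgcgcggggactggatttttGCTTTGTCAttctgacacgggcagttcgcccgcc
Counted to the first base of the core in the direction of the gene, these stand at -240, -56, -56, 29, -133 and -92 from the start site. The Nfe2l2 window also lies in an exon of E030042O20Rik, and the cores of G6pdx, Me1, Mgst1, Pgd and Srxn1 lie in an annotated exon of their own gene. In Prdx1 and Me1 the core contains the AP-1 letters TGANTCA. The 10 members with the core had a median log2 difference of 0.08, with 2 above WT, 2 below and 6 overlapping. The 25 with a promoter and no core had a median of 0.03, with 3 above, 7 below and 15 overlapping. Of all genes tested, 23.3% stood above and 23.8% below, with a median of -0.0021. Both groups of members are small and were not tested against each other. A match of letters is a description of the window and not a measured site. A gene without the core here may hold it outside the bases searched, which was not tested.

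The heme and quinone enzymes were led by Hmox1. Heme oxygenase-1 breaks heme into biliverdin, iron and carbon monoxide (Hmox1: chromosome 8, 75093621 to 75100589, plus strand). Hmox1 measured 4883 and 2806 in the WT pair and 6385 and 7905 in the EpiKO pair. Both EpiKO libraries were above both WT libraries, although the WT pair differed from each other by 1.74-fold. The mean was 3845 ± 1469 in WT and 7145 ± 1075 in EpiKO (SD, n = 2), a ratio of 1.86. On the log2 scale the difference was 0.94 (SE 0.29, 95% interval 0.19 to 1.69, limma adjusted p = 0.229). DESeq2 put the adjusted p at 0.0356, while the other settings gave 0.145 to 0.480. The difference was 1.34 without WT replicate 1 and 0.54 without WT replicate 2, so the size moved with the WT library used while the direction held. Blvrb, which reduces biliverdin and flavins, measured 2089 and 1403 in the WT pair and 1749 and 2089 in the EpiKO pair, and the groups overlapped. Nqo1, a quinone reductase and a classical NRF2 target, was near the floor: 16.2 and 5.88 in WT and 16.1 and 28.4 in EpiKO, with 7 reads in the lowest library. Its log2 difference of 1.04 had an SE of 0.65 (limma adjusted p = 0.532).

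Of the 5 genes of glutathione synthesis and recycling, 0 had a limma p below 0.05 before adjustment, against 15.6% of all genes tested. With 5 genes this count cannot be told apart from that share. Slc7a11 encodes the cystine importer that feeds the pathway and was the most variable of them. It measured 596 and 198 in the WT pair and 637 and 430 in the EpiKO pair. The WT libraries differed by 3.02-fold, more than the groups did (log2 difference 0.61, SE 0.55, limma adjusted p = 0.684). Gclc, the catalytic subunit of the rate-limiting ligase, measured 1008 and 1017 in the WT pair and 986 and 848 in the EpiKO pair. Gclm, its modifier subunit, measured 416 and 338 in the WT pair and 437 and 370 in the EpiKO pair. Gss, which adds glycine, measured 416 and 387 in the WT pair and 309 and 363 in the EpiKO pair. Gsr, which returns oxidized glutathione to the reduced form, measured 967 and 1085 in the WT pair and 1043 and 993 in the EpiKO pair, a log2 difference of -0.0089 with a 95% interval of -0.30 to 0.28. The intervals of Gclc and Gsr lay within 0.5 in either direction.

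In the thioredoxin system 4 of 5 log2 differences were negative, with a median of -0.13. Txn1, the cytosolic thioredoxin that reduces protein disulfides, measured 3609 and 3696 in the WT pair and 2997 and 2133 in the EpiKO pair. The groups did not overlap, and EpiKO replicate 2 was the lowest library. The log2 difference was -0.53 (SE 0.18, 95% interval -0.998 to -0.06, limma adjusted p = 0.265), and it was -0.29 without EpiKO replicate 2. Txnrd1, the cytosolic reductase of thioredoxin, measured 2994 and 2472 in the WT pair and 2484 and 2001 in the EpiKO pair, with overlap. The mitochondrial forms gave intervals that span 0: Txn2 measured 2218 and 2320.0 in the WT pair and 2144 and 2143 in the EpiKO pair, and Txnrd2 was at 382 in both WT libraries and at 330.5 and 369 in EpiKO. Txnip, the thioredoxin-binding inhibitor, measured 6816 and 6474 in the WT pair and 5671 and 8844 in the EpiKO pair. The EpiKO libraries lay on either side of WT, 1.56-fold apart.

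Of the peroxiredoxins, which reduce peroxides through a reactive cysteine, Prdx5 and Prdx6 had the highest EpiKO values relative to WT. Prdx5 is found in mitochondria, peroxisomes and cytosol (chromosome 19, 6906697 to 6910106, minus strand). It measured 3036 and 2504 in the WT pair and 4513 and 4082 in the EpiKO pair. The EpiKO libraries were both above WT, and the spread within each group was smaller than the gap between them. The mean was 2770 ± 376 in WT and 4297 ± 305 in EpiKO (SD, n = 2), a ratio of 1.55. This is a log2 difference of 0.64 (SE 0.14, 95% interval 0.28 to 1.00, limma adjusted p = 0.123), with 0.50 to 0.78 when a library was left out. DESeq2 gave an adjusted p of 0.0104, and the other settings ran from 0.103 to 0.386. An exon of Prdx5 overlaps Trmt112 on the opposite strand, and Trmt112 had a log2 difference of -0.10.

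Prdx6, a peroxiredoxin that uses glutathione and also has phospholipase activity, measured 1700.3 and 1576 in the WT pair and 3246 and 1985 in the EpiKO pair. Both EpiKO libraries were higher than WT, but they stood 1.64-fold apart (log2 difference 0.63, SE 0.25, limma adjusted p = 0.325). Prdx1, the most abundant member of its family per exon length, measured 8381 and 7663 in the WT pair and 8696 and 8036 in the EpiKO pair. Its log2 difference of 0.06 had a 95% interval of -0.24 to 0.37. Prdx2, Prdx3 and Prdx4, of cytosol, mitochondria and endoplasmic reticulum, had log2 differences of -0.06, 0.09 and -0.18. Srxn1 encodes sulfiredoxin, which repairs over-oxidized peroxiredoxins, and its promoter window is printed above. It measured 1469 and 883 in the WT pair and 856 and 678 in the EpiKO pair. WT replicate 1 was far above the other 3 libraries. The log2 difference was -0.58 (SE 0.28, limma adjusted p = 0.406) with it and -0.21 without it.

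Gpx1, a selenoenzyme that reduces hydrogen peroxide with glutathione, was the most abundant member. It measured 18278.5 and 21217 in the WT pair and 16251 and 11475 in the EpiKO pair. The groups did not overlap, and the EpiKO pair was 1.42-fold apart. The log2 difference was -0.53 (SE 0.21, 95% interval -1.05 to -0.0032, limma adjusted p = 0.316). Gpx4, which reduces lipid hydroperoxides and guards against ferroptosis, measured 2588 and 2371 in the WT pair and 2473 and 2140 in the EpiKO pair, with overlap. Gpx4 shared 34.7% of its 50-base words with other genes, so its value may hold reads of copies. Gpx3, the secreted peroxidase, measured 1172 and 896 in the WT pair and 609 and 1961 in the EpiKO pair. The EpiKO libraries were 3.22-fold apart and lay on either side of WT. The fibroblast markers were likewise lower in EpiKO replicate 1 than in replicate 2, and their part in Gpx3 was not tested.

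Mgst1 had the greatest difference of the set. Microsomal glutathione transferase 1 conjugates glutathione to electrophiles and reduces lipid hydroperoxides at membranes (chromosome 6, 138140316 to 138156755, plus strand). It measured 195 and 164 in the WT pair and 928 and 359 in the EpiKO pair. Both EpiKO libraries were above both WT libraries, and EpiKO replicate 1 was 2.58-fold above replicate 2. The mean was 179 ± 21.8 in WT and 644 ± 402 in EpiKO (SD, n = 2), a ratio of 3.59. For Mgst1 the log2 difference was 1.69 (SE 0.46, 95% interval 0.50 to 2.87, limma adjusted p = 0.186). It was 1.00 without EpiKO replicate 1 and 2.37 without EpiKO replicate 2. DESeq2 gave 1.84 with an adjusted p of 0.00128, and over the other settings the adjusted p ran from 0.0679 to 0.503. Of the 8 neutrophil markers, only Mmp8 was likewise highest in EpiKO replicate 1, while Csf3r was lowest there, at 514 against 1154, 1215 and 1323. The part of these cells in Mgst1 was not tested.

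The remaining transferases gave no common direction. Mgst2, which can make leukotriene C4, was low and uneven, at 41.7 and 7.57 in the WT pair and 47.4 and 39.7 in the EpiKO pair. Only WT replicate 2, with 9 reads, stood apart, and the log2 difference was 1.21 with an SE of 0.81. Without that library it was 0.05. Mgst3, another microsomal member, measured 398 and 435 in the WT pair and 403 and 190.0 in the EpiKO pair, where EpiKO replicate 2 alone was low. The soluble enzymes Gstm1 and Gsto1 had log2 differences of 0.02 and -0.05 and overlapping groups. Gstp1 measured 233 and 244 in the WT pair and 255 and 289 in the EpiKO pair, and 33.7% of its 50-base words are shared with other genes, Gstp2 first among them.

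Sod1 had the smallest adjusted p of the 40 in limma and in edgeR, and Mgst1 in DESeq2. This copper-zinc superoxide dismutase turns cytosolic superoxide into hydrogen peroxide (chromosome 16, 90220754 to 90226329, plus strand). Sod1 measured 1754 and 1591 in the WT pair and 1154 and 1178 in the EpiKO pair. The EpiKO libraries were within 1.02-fold of each other and both below WT. The mean was 1672 ± 115 in WT and 1166 ± 16.6 in EpiKO (SD, n = 2), 1.43-fold higher in WT. For Sod1 the log2 difference was -0.52 (SE 0.11, 95% interval -0.79 to -0.24, limma adjusted p = 0.111). It stayed between -0.59 and -0.45 whichever library was left out. DESeq2 gave an adjusted p of 0.0287 for Sod1, and the other settings gave 0.0980 to 0.374. Sod3, the extracellular enzyme, was low, at 42.9 and 26.1 in the WT pair and 30.1 and 69.9 in the EpiKO pair. Cat, the peroxisomal catalase, measured 2023 and 1971 in the WT pair and 1939 and 2130.2 in the EpiKO pair, with a 95% interval of -0.25 to 0.30 around a log2 difference of 0.03.

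The 5 genes grouped under NADPH supply all had a positive log2 difference, with a median of 0.26. In limma 0 of them passed the adjusted threshold, against 0.947% of all genes tested. Tkt and Taldo1 of this group rearrange sugar phosphates and do not themselves make NADPH. Pgd, the second dehydrogenase of the pentose phosphate pathway, measured 5222 and 5669 in the WT pair and 9399 and 6895 in the EpiKO pair. Both EpiKO libraries were above both WT libraries, and EpiKO replicate 1 was the highest. Pgd had a log2 difference of 0.57 (SE 0.18, 95% interval 0.11 to 1.02, limma adjusted p = 0.228), and 0.34 without EpiKO replicate 1. G6pdx, which encodes the first and rate-limiting enzyme, measured 2028 and 2417 in the WT pair and 2811 and 2385 in the EpiKO pair (log2 difference 0.23, limma adjusted p = 0.554). Tkt, transketolase, measured 5852 and 6837 in the WT pair and 8634 and 6678 in the EpiKO pair. Taldo1, transaldolase, measured 4800 and 4921 in the WT pair and 5445 and 4764 in the EpiKO pair. Me1, cytosolic malic enzyme, was low, at 41.7 and 31.1 in the WT pair and 32.3 and 79.4 in the EpiKO pair. Apart from Pgd, the groups overlapped in each of these genes. G6pdx and Prdx4 are X-linked, and Xist had a log2 difference of 1.65 between the same groups. The part of Xist in either gene was not tested. The sex of the animals is not given, so any difference in sex between the groups cannot be told apart from genotype for any member.

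**Figure D3:**
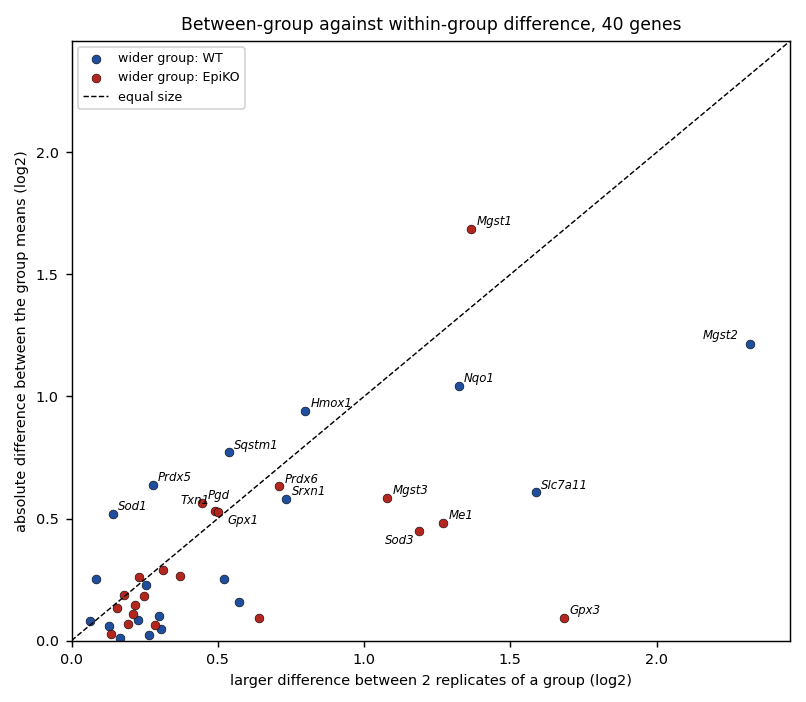
For each member, the size of the log2 difference between groups (vertical axis) against the larger of its 2 within-group log2 differences (horizontal axis), with the line of equality. Only 12 of the 40 members lie above the line, Prdx5, Sod1 and Mgst1 among them.

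The spread between replicates was as large as most group differences. In 28 members a log2 difference between replicates of 1 group exceeded that between the groups. The other 12 (30%, against 34.7% of all genes tested) were Keap1, Sqstm1, Hmox1, Gss, Txn1, Txn2, Prdx5, Gpx1, Gstp1, Mgst1, Sod1 and Pgd. The median replicate difference was 0.22 in WT and 0.25 in EpiKO, against 0.18 and 0.19 for all genes tested. WT replicate 1 exceeded WT replicate 2 by more than 1.4-fold in 9 of 40 members (Nfe2l2, Sqstm1, Hmox1, Blvrb, Nqo1, Slc7a11, Srxn1, Mgst2 and Sod3), against 11.4% of all genes tested. The reverse occurred in 0 members, against 6.64% of all genes. The keratinocyte markers were high in that same library, and their part in this difference was not tested. In EpiKO, replicate 1 was higher by that ratio in 6 members (Slc7a11, Txn1, Prdx6, Gpx1, Mgst1, Mgst3), against 8.21% of all genes. Replicate 2 was higher in 5 of 40 (Nqo1, Txnip, Gpx3, Sod3, Me1), near the 11.9% of all genes.

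**Figure D4:**
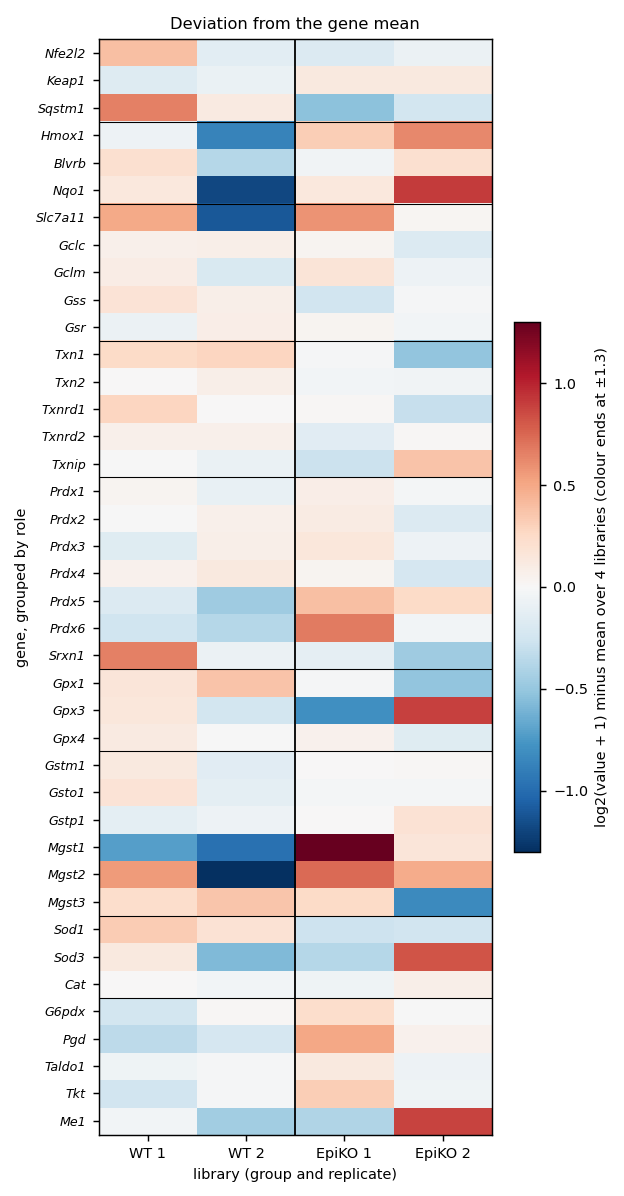
Log2 value of each member in each library minus its mean over the 4 libraries, by role (colour scale). WT replicate 1 is high for 9 members relative to WT replicate 2 by more than 1.4-fold (11.4% of all genes tested do the same), and the EpiKO pair differs by more than 3-fold in Gpx3.

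Per kilobase of annotated exon, the scale on which genes can be set beside each other, Gpx1 led with a mean level of 11662 over the 4 libraries. The order below Gpx1 depended on the group. In WT it was Txn1 at 3475, Sqstm1 at 2898, Prdx1 at 2636, Taldo1 at 2239 and Hmox1 at 2196. In EpiKO it was Hmox1 at 4080.4, Prdx1 at 2749, Txn1 at 2441, Taldo1 at 2351 and Txnip at 2324. Each is a mean of 2 libraries. Neighbours overlapped between libraries except Txn1 with Sqstm1 and Prdx1 with Taldo1 in WT, and Hmox1 with Prdx1 in EpiKO. Hmox1 ranged from 1602 to 4514 per kilobase between libraries, and Txn1 from 2029.5 to 3517. The lowest levels per kilobase were those of Mgst2 (9.21), Nqo1 (10.7), Sod3 (11.3) and Me1 (12.0). The members' values summed to 0.556% to 0.601% of each library's total.

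Genes around the set were read from lists of 85 further genes in the table, of which 73 were tested. In limma 0 of the 73 passed an adjusted p of 0.05, and 9 (4 higher, 5 lower in EpiKO) had an unadjusted p below it, 12.3% against 15.6% of all genes. For edgeR those counts were also 0 and 9. DESeq2 called 3, Mafk and Gstt1 lower and Msrb1 higher, 4.11% against 6.85% of all genes. Of the 8 partners and repressors of NRF2, 7 had a negative log2 difference. Mafk, a small MAF partner, measured 3643 and 2639 in the WT pair and 1353 and 1340.1 in the EpiKO pair, a log2 difference of -1.20 (SE 0.18, limma adjusted p = 0.0602). Bach2, a repressor at the same elements, measured 327 and 298 in the WT pair and 199 and 198 in the EpiKO pair (log2 difference -0.65, limma adjusted p = 0.131). Its relative Bach1, which represses Hmox1 until heme binds it, measured 4200.5 and 3241 in the WT pair and 2805 and 2833 in the EpiKO pair (log2 difference -0.39, limma adjusted p = 0.324). Both EpiKO libraries were below both WT libraries for each of these 3 genes.

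Among the 23 further glutathione enzymes tested, the theta-class transferase Gstt1 had the lowest log2 difference. It measured 132 and 250 in the WT pair and 19.4 and 2.84 in the EpiKO pair, the last of which is 3 reads. The log2 difference was -4.37 (SE 0.87, limma adjusted p = 0.109), and it ran from -5.57 to -3.16 with a library left out. Gstt2 measured 162 and 166 in the WT pair and 98.0 and 78.4 in the EpiKO pair, and the same-class Gstt3 at 139 and 176 in the WT pair and 107 and 88.8 in the EpiKO pair. Glrx, glutaredoxin, measured 837 and 836 in the WT pair and 1887 and 1087 in the EpiKO pair (log2 difference 0.77, limma adjusted p = 0.274). Msrb1, which repairs oxidized methionine, measured 1691 and 1517 in the WT pair and 2625 and 2246 in the EpiKO pair (log2 difference 0.60, limma adjusted p = 0.119). The NADPH oxidase, a known source of superoxide in phagocytes, had 0 of 7 tested genes with an unadjusted limma p below 0.05. The share was 15.6% of all genes tested, from which a count among 7 genes cannot be told apart. The oxidase GTPase Rac2 had the smallest p of the 7, with a log2 difference of 0.33. Fth1, the ferritin heavy chain that stores iron released by heme oxygenase, measured 81827 and 60882 in the WT pair and 89795 and 86070.1 in the EpiKO pair. Both EpiKO values of Fth1 were above WT, and its log2 difference of 0.32 had an SE of 0.20 (limma adjusted p = 0.530).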

How the data were processed

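Poly-A RNA-seq libraries of 4 samples (2 WT, 2 EpiKO, grouped by the genotype label) were analysed. The submitters' processing notes list DESeq2, featureCounts 1.5.0-p3, STAR 2.5.2b and bcl2fastq 2.17 and the mm10 build. The deposited signal values are normalized counts: read counts per gene that the authors divided by a factor per library, so that 100% of the values are whole multiples of 1 read within 1e-06 reads. Strand handling is not given in the sources used here, and 10 members overlap an exon on the opposite strand. From these values, log2(value + 1) was tested in limma 3.58.1 (R 4.3.3, trended robust moderation) over genes that reached 10 in 2 or more libraries, with Benjamini-Hochberg adjustment over 12463 genes. Fold changes on that scale can understate those of low genes, but not in every case. For the low gene Mgst2 the log2 difference was 1.21 in limma, 0.86 in edgeR and 0.84 in DESeq2. edgeR 4.0.16 and DESeq2 1.42.0 on the recovered reads, other pseudocounts, filters and scalings, and leaving out each library were alternatives. The fits were run on simulated data with changes larger than most of those found here, so power at the sizes reported was not tested. Depth was 15884132 to 21244158 reads. Exon lengths and coordinates come from GENCODE M21 (mm10), promoters from RefSeq (GRCm38.p6). Members and gene lists were chosen with earlier results of these data known. Of 170 list entries, 166 were matched, 3 of them by a synonym, and 4 were not found. Any member could be named. From each further list at most 4 genes with the smallest p were named, from each marker list at most 3 of the highest mean, plus Cd200, Cd200r1 and Ctsk. Trmt112 and Camp were named outside that rule after their values were seen. Gstp2 and E030042O20Rik were named only for shared sequence or position.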

Additional observations from a re-analysis of the deposited data

How the results depend on the processing

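There were 2 libraries a group, and the lowest count behind a member's value was 7 reads (Nqo1 in WT replicate 2), with 9 for Mgst2. DESeq2 called 5 members (3 higher, 2 lower) where limma and edgeR called 0, with log2 differences of 0.89 for Hmox1, 1.84 for Mgst1, 0.63 for Prdx5, -0.52 for Sod1 and -0.79 for Sqstm1. The cause of the gap between tools was not tested. DESeq2 also called 3 of the other pathway genes, and a threshold of adjusted p 0.1 in limma called 1 of them (Mafk). Every other setting called 0 members. With a library left out, the members without overlap numbered 27 to 30 against 17. Those above WT numbered 11 to 17 against 7, and those below 12 to 16 against 10. Fewer libraries separate more easily, and the shares of all genes were not counted with a library left out. The core in promoters fell from 10 genes to 3 on the strand of the gene alone (8.57%, near the 7.29% of all genes) and to 2 with the longer core (5.71% against 3.45%). No member with a call changed direction in any setting. The sign changed in 2 members with equal library totals (Gstm1, Cat), in 1 with quantile normalization (Gsr) and in 3 to 7 with a library left out. The number of all genes called moved from 118 to 31 without the trend and to between 0 and 7 with a library left out, where the lone library of a group is assumed to vary like the others. No paired analysis was possible because the labels give no replicate numbers that the groups share.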
